A study of Homo sapiens with 4 samples.

Results

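A set of 6 genes of young neurons, TAGLN3, DCX, TUBB3, SNAP25, SYT1 and CAMK4, was followed through the ATOH1-TRAP data. The genes were chosen by name as genes of the neuronal cytoskeleton, of the synapse and of calcium signaling, with earlier results of these data known, and they are 6 of the 789 genes that could be given a symbol. Together they hold 25 of the 69548 transcripts listed in each library, and all 6 passed the filter on low counts.

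The data are RNA-seq of translating ribosome affinity purification (TRAP), in which ribosomes carrying a GFP-tagged protein are pulled down and the RNA bound to them is sequenced. The cells came from RUES2, a human embryonic stem cell line, carrying an ATOH1-EGFP-L10a transgene, and were collected after 28 days in vitro (DIV28) of differentiation toward the ATOH1 lineage of the hindbrain. A human ATOH1 enhancer, delivered by lentivirus into RUES2 cells that were then cloned, drives the fusion of EGFP and the ribosomal protein L10a. Tagged ribosomes can therefore come from any cell in which the enhancer was active and the protein persisted. The 3 IP libraries were made with the GFP antibodies 19C8 and 19F7 from independent differentiations, and the 1 input library holds RNA that was not immunoprecipitated. By the study's description, all libraries share the transgene, the puromycin selection and the additions to the N2/B27 medium. These are SB431542 and LDN-193189, CHIR99021, FGF2, BDNF and BMP7. The tags of the libraries do not show whether the input came from the culture of any IP. Total estimated counts were between 34603230 and 37719839 for the IPs and 41173019 for the input.

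Which library is the input rests on a tag and not on the sample labels. The sample labelled input is titled with both tags, T106 and T113, but the values attached to it carry T106, and the values tagged T113 are attached to a sample labelled IP. The library tagged T113 was used here as the input and the 3 tagged T106 as the IPs. Correlations of log2 CPM (counts scaled to a common library size with edgeR's TMM factors) were at least 0.932 among the 3 libraries tagged T106 and at most 0.862 between the library tagged T113 and any of them. ATOH1, the gene whose enhancer drives the tag, had 935, 1330 and 1228 reads in the IPs, against 7 for the input library. When the library attached to the input label was set against the other 3 instead, the log2 fold changes of all 6 genes changed sign, and none of the 46056 features tested passed an adjusted p of 0.05 in edgeR's quasi-likelihood test, while 1080 higher and 225 lower had an unadjusted p under 0.05. Every direction below therefore holds for the library tagged T113 as input.

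Young neurons build axons and leading processes on a cytoskeleton of their own. TUBB3 encodes a neuronal beta-tubulin, a building block of microtubules. DCX encodes doublecortin, which binds and stabilizes microtubules in migrating neurons. TAGLN3 encodes an actin-associated protein of the calponin family that is found mainly in neurons. SNAP25 and SYT1 belong to the machinery of transmitter release, in which SNAP25 is a plasma membrane SNARE protein and synaptotagmin 1 is the calcium sensor of the vesicle. CAMK4 encodes a calcium/calmodulin-dependent kinase that acts largely in the nucleus and is known for high levels in cerebellar granule cells.

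2 kinds of sequence are shown for the genes that the results turn on. The first kind are the promoters of TAGLN3 and CAMK4, the genes with the largest difference in either direction between IP and input, with each CANNTG, the E-box bound by bHLH proteins such as ATOH1, in capitals. They run from 250 bases before to 50 bases after an annotated RefSeq start on GRCh38.p14, both on the plus strand, at chr3:111998672-111998971 and chr5:111223333-111223632.
TAGLN3: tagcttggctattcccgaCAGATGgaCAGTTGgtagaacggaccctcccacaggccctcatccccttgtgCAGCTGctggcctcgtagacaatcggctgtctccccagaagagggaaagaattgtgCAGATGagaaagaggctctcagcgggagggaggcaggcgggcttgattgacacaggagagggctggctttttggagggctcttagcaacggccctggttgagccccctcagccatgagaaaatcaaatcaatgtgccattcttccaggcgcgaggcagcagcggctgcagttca
CAMK4: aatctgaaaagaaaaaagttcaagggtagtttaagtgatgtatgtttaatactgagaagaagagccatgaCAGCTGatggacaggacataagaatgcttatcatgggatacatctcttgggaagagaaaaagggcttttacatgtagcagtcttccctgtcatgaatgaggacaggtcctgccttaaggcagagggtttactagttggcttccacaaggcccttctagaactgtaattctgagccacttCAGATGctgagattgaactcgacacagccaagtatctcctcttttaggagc
The TAGLN3 promoter shown held 4 such matches and the other annotated promoter of this gene held 1. The CAMK4 promoter shown held 2, and the other promoters of this gene held 2 and 0, so the sequences printed are those with the most matches, in CAMK4 equal with another. RefSeq promoters were found for 5 of the 6 genes, 11 promoters in all, of which 6 held CANNTG, 2 held CAGCTG and 4 held CATCTG or CAGATG, the 2 strands of 1 motif. CANNTG covers each of the others, and was searched on both strands. Of all 35116 promoters of this length, 68.7% held CANNTG, 15.3% held it at least 3 times, 17.9% held CAGCTG and 14.7% held CATCTG or CAGATG. These are matches of letters and not measured binding sites, and no promoter was tied to the transcripts that carried the reads.

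The second kind are the alternative copies of 1 coding exon of SNAP25, shown because most reads of this gene fell on 2 transcripts of equal length. On GRCh37, plus strand, they lie at chr20:10273530-10273647 and chr20:10273809-10273926, with the bases at which they differ in capitals.
SNAP25 upstream exon: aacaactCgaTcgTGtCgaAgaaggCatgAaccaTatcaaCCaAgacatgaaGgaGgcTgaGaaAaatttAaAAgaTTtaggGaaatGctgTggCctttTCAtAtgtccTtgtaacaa
SNAP25 downstream exon: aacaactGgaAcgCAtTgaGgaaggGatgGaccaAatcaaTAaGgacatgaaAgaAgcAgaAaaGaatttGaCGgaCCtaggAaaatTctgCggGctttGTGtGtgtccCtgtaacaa
Both copies are 118 bases long, 31 bases differ and the identity is 73.7%. The annotation places them in 3 and 13 SNAP25 transcripts, and which copy each deposited transcript carries was not read here.

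In the comparison of IP with input, the question is which RNAs the tagged ribosomes hold in excess of the input RNA. All IPs carry the tag T106 and the lone input carries T113. A difference between cultures or preparations that goes with the tag therefore cannot be told apart from IP against input. Of the 6 genes, 5 were higher in the IPs (edgeR's quasi-likelihood test, adjusted p under 0.05), namely TAGLN3, TUBB3, DCX, SNAP25 and SYT1, while CAMK4 lay in the other direction and did not pass. Of all features tested, 2.08% were higher and 1.16% lower by this test. Among the 789 joined genes, the shares were 32.4% and 17.6%, and these genes come from a part of the study's table that holds genes the study had called different in these libraries. Their median log2 fold change was 0.96, against 0.09 for all features, so the count of 5 is not independent evidence of a direction. With 1 input library, the spread is that of the IPs, and the lone input was assumed to vary as they do. In these bulk libraries, fewer cells of a type and less RNA per cell cannot be told apart.

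For the cytoskeleton genes, TAGLN3 (chr3:111717586-111732734, plus strand, GRCh37 as are all gene positions below) differed most. It reached 388, 398 and 341 CPM in the 3 IPs, against 26.2 CPM for the input. All 3 IPs lay far above the input, the highest of them by 15.2-fold, and close to each other at 376 ± 30.2 CPM (SD, n = 3). The log2 fold change was 3.84 (SE 0.18, adjusted p = 0.0181), the 11th smallest p among the joined genes.

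DCX (chrX:110537007-110655657, minus strand) was at 402, 526 and 478 CPM in the 3 IPs, against 139 CPM for the input. The IPs did not overlap the input, but spread more widely than those of TAGLN3, with a mean of 468 ± 62.7 CPM (SD, n = 3). The mean was 3.38-fold the input level, and the log2 fold change was 1.76 (SE 0.21, adjusted p = 0.0412).

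TUBB3 (chr16:89987800-90005169, plus strand) was at 424, 487 and 505 CPM in the 3 IPs, against 177 CPM for the input. Its IP mean of 472 ± 42.4 CPM (SD, n = 3) was close to that of DCX, and the IPs again stood clear of the input. The difference was 2.67-fold, or 1.42 on the log2 scale (SE 0.16, adjusted p = 0.0393).

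For the synaptic genes, SNAP25 (chr20:10153043-10288906, plus strand) was at 55.5, 59.2 and 58.7 CPM in the 3 IPs, against 18.2 CPM for the input. It had the narrowest relative spread of the 6 genes over the IPs, with a coefficient of variation of 3.47%. The mean of 57.8 ± 2.01 CPM (SD, n = 3) was 3.17-fold the input level, and the log2 fold change was 1.66 (SE 0.16, adjusted p = 0.0345).

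SYT1 (chr12:79257773-79845788, plus strand) was at 51.8, 51.0 and 57.8 CPM in the 3 IPs, against 20.7 CPM for the input. The 3 IPs were higher than the input, by 2.47-fold in the lowest. The mean of 53.5 ± 3.73 CPM (SD, n = 3) gave 2.59-fold and a log2 fold change of 1.37 (SE 0.18, adjusted p = 0.0443), the smallest called difference of the group.

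CAMK4 (chr5:110559351-110830584, plus strand) was at 1.03, 1.41 and 1.62 CPM in the 3 IPs, against 11.6 CPM for the input, from 37, 52, 60 and 471 reads. All 3 IPs lay below the input and their 95% Poisson intervals, which cover counting error only, ran from 0.728 to 2.09 CPM, whereas that of the input ran from 10.6 to 12.7 CPM. The input was 8.57-fold the IP mean of 1.36 ± 0.298 CPM (SD, n = 3), and 7.16-fold the highest IP. The log2 fold change was -3.10 (SE 0.56), with an unadjusted p of 0.00429 and an adjusted p of 0.0729 in edgeR's quasi-likelihood test over all features, so the difference did not pass. It passed in edgeR when features needed 50 counts in 2 libraries (adjusted p = 0.0402), a setting that called 1027 of 29227 features lower. It also passed in DESeq2 (adjusted p = 3.31e-07), which called 4286 of 40182 features lower. The study made its own calls with DESeq2, and CAMK4 could be joined only as a gene it had called. The DESeq2 result is therefore not independent support.

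**Figure D1:**
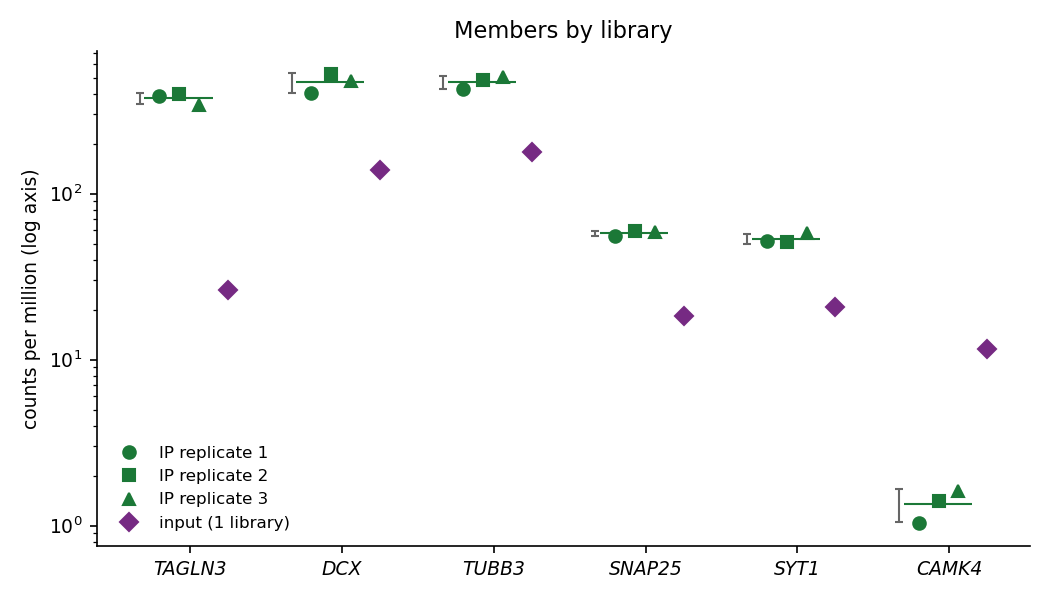
CPM on a log axis for each of the 6 genes, with 1 symbol per library, green for the IPs and purple for the input, a line at the IP mean and a bar for its SD (n = 3). The IP symbols lie above the input for 5 genes, from 341 to 398 against 26.2 CPM for TAGLN3, and below it for CAMK4, at 1.03 to 1.62 against 11.6 CPM.

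All 3 IPs were on the same side of the input for each of the 6 genes, as they were for 28.3% of all features above and 33.7% below the input. The calls depended on having all 3 IPs. Without IP replicate 1, 2 or 3, none of the 6 genes and none of the features passed in edgeR, although the 6 genes kept their direction and an unadjusted p under 0.05 in each case, as did 3793 to 4510 features above and 3286 to 3945 below the input. For the 5 genes higher in IP, adjusted p then lay between 0.101 and 0.203. In limma-voom with all libraries, no feature passed either, with adjusted p from 0.0711 to 0.0841 for the 6 genes and an unadjusted p under 0.05 for 4031 features above and 6860 below, whereas DESeq2 called 6169 higher and 4286 lower.

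**Figure D2:**
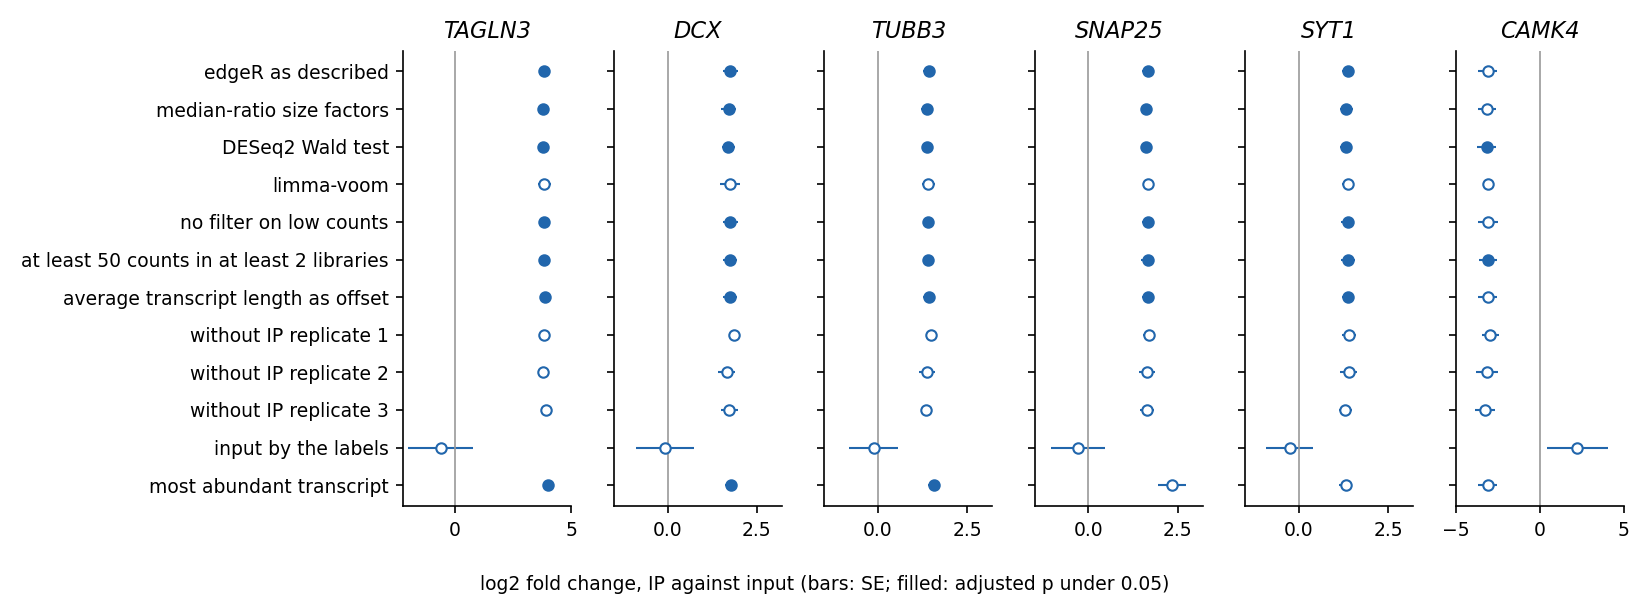
Log2 fold change of IP against input (x axis, 1 panel per gene) under each way of processing (y axis), with bars of 1 SE where the fit gives one. Values stay on 1 side of 0 for each gene except where the library attached to the input label is the input, at -0.60 for TAGLN3 and 2.24 for CAMK4.

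Levels were compared between genes per transcript length, as TPM, which divides by transcript length and adds up to the same total in each library. In the IPs, TAGLN3 was at 464, 463 and 376 TPM and TUBB3 at 328, 366 and 359 TPM. Their ranges did not overlap, but lay close together, with means of 434 ± 50.3 and 351 ± 20.2 TPM (SD, n = 3), a ratio of 1.24. DCX followed at 53.4, 67.9 and 58.3 TPM, although its CPM was close to that of TUBB3, since its main transcript is 9123 bases long against 1769 bases. SNAP25 was at 36.2, 37.5 and 35.2 TPM and SYT1 at 13.4, 12.8 and 13.7 TPM. CAMK4 stood last by a wide gap, at 0.612, 0.810 and 0.883 TPM. No neighbors in this order overlapped in the IPs.

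The order in the input was another. TUBB3 led with 165 TPM, TAGLN3 came second with 37.5 TPM, and DCX and SNAP25 were at 22.5 and 14.5 TPM. CAMK4, at 8.37 TPM, stood above SYT1, at 6.50 TPM, and with 1 library the spread behind these neighbors is unknown.

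**Figure D3:**
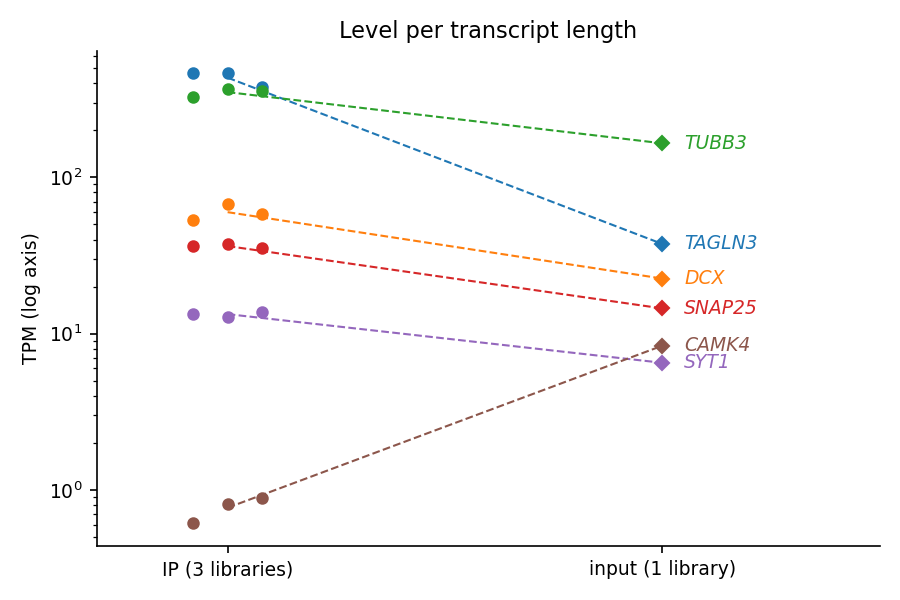
TPM on a log axis for the 6 genes in the 3 IP libraries (circles) and the input (diamonds), with a dashed line from the IP mean to the input. The lines of 4 genes run nearly side by side, that of TAGLN3 falls from 434 to 37.5 TPM, and that of CAMK4 climbs from 0.768 to 8.37 TPM.

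Ratios within a library show how the genes varied among themselves, without the scaling between libraries. Of the 15 pairs of genes, the input lay outside the range of the 3 IPs in 13. The 6 pairs among DCX, TUBB3, SNAP25 and SYT1 differed between IP mean and input by 0.05 to 0.37 on the log2 scale of TPM ratios, and in 2 of them, DCX to SNAP25 and TUBB3 to SYT1, the input fell inside the IP range. By contrast, TAGLN3 was shifted against each of these 4 by 2.12 to 2.49, and CAMK4 against each of the other 5 by 4.50 to 6.99, in opposite directions. The SD of the ratios over the IPs was between 0.09 and 0.41. These are descriptions of 4 libraries with no test.

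Transcripts were then examined 1 by 1, and with each transcript its own feature 1.95% of 46762 were higher and 1.1% lower in IP. TAGLN3 reads fell mainly on uc003dyo.3 (1200 bases), which took 70.7, 70.7 and 71.5% of them in the IPs against 63.5% for the input, and on uc003dym.3 (1315 bases). Both were higher in IP, with log2 fold changes of 4.00 and 3.87 (edgeR's quasi-likelihood test, adjusted p = 0.0188 for each). A longer transcript, uc003dyl.3, took 1.49 to 2.32% of the reads in the IPs against 9.41% for the input, and did not pass (log2 fold change 1.58, adjusted p = 0.28).

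DCX reads were divided between uc004epf.3 (9123 bases) and uc004epg.3 (9108 bases), which differ in length by 15 bases. The first held 67.5, 61.7 and 57.3% of the reads in the IPs against 60.7% for the input, so its share in the input lay within that of the IPs. It was higher in IP (log2 fold change 1.78, adjusted p = 0.0362 in edgeR), while uc004epg.3, at 2.00, did not pass (adjusted p = 0.0630). The transcript uc004epe.3 had 274, 673 and 562 reads in the IPs against 522 for the input (log2 fold change 0.09).

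TUBB3 was carried by uc002fph.2 (1769 bases), with 96.4, 95.8 and 97.8% of the reads in the IPs against 87.1% for the input. This transcript was higher in IP by 1.56 on the log2 scale (edgeR, adjusted p = 0.0387). The next, uc010ciz.1, had 455, 708 and 295 reads in the IPs against 784 in the input, the reverse order, and did not pass (log2 fold change -0.54, adjusted p = 0.664).

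SNAP25 reads were split between uc002wnq.2 and uc002wnr.2, both of 2054 bases. The share of uc002wnq.2 was 42.1, 64.3 and 49.1% in the IPs against 32.6% for the input, that is, higher in each IP but with a spread among IPs wider than the gap to the lowest of them. Neither transcript passed alone in edgeR, at log2 fold changes of 2.34 (adjusted p = 0.0666) and 1.14 (adjusted p = 0.199). Whether uc002wnq.2 and uc002wnr.2 differ in the exon copy was not read here. Transcripts that differ in 1 exon copy alone are told apart only by reads over those bases, and the split given here is Salmon's estimate.

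SYT1 lay almost wholly on uc001syt.3 (4810 bases), which alone did not pass (log2 fold change 1.30, edgeR adjusted p = 0.0532). A second transcript, uc001syu.3, had 101, 93.8 and 49.5 estimated reads in the IPs against 0 for the input, and did not pass (adjusted p = 0.0766). CAMK4 reads were nearly all on uc003kpf.3 (2241 bases).

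**Figure D4:**
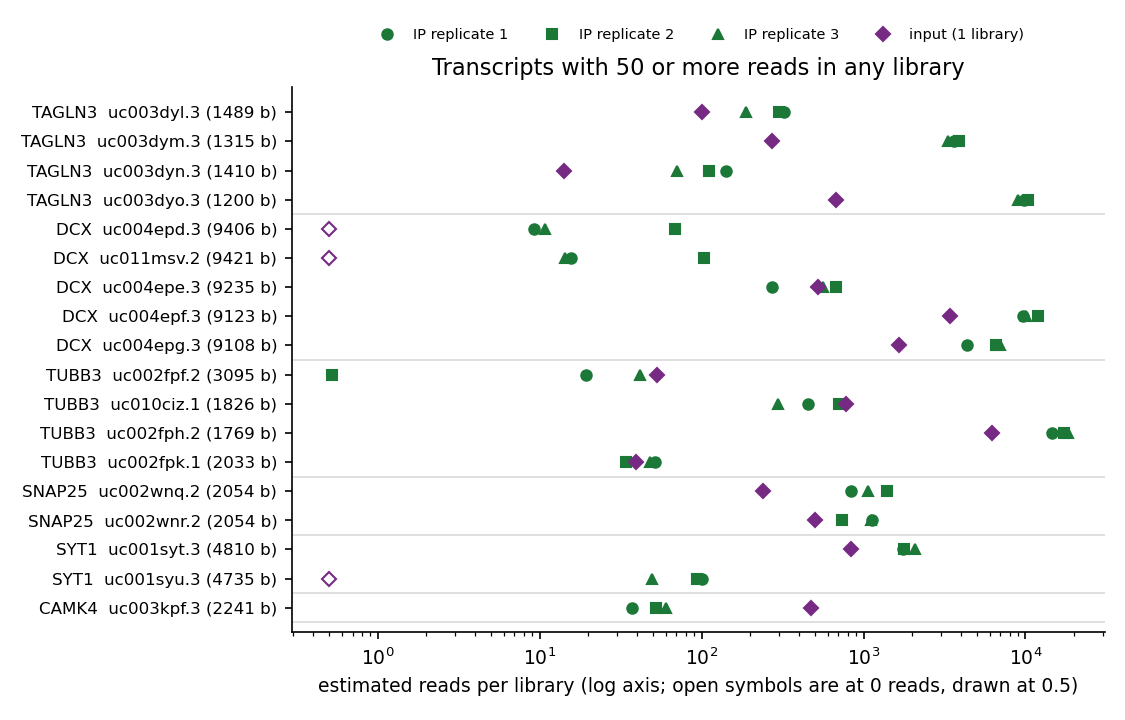
Estimated reads on a log axis (x axis) for the transcripts of the 6 genes with 50 or more reads in any library (y axis), 1 symbol per library, open symbols at 0.5 standing for 0 reads. Input symbols lie left of the IPs for the main transcripts of TAGLN3, DCX, TUBB3, SNAP25 and SYT1, and right of them for uc003kpf.3 of CAMK4, at 471 against 37 to 60 reads.

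Other genes of the same systems were taken from lists, of which only the genes that could be joined have values. Of 68 genes of the young neuronal cytoskeleton, 20 were joined. Beside the 3 members, 6 of the other 17 were higher and 1 lower in IP, with a median log2 fold change of 1.08. Over all 789 joined genes, 32.4% were higher and 17.6% lower, with a median of 0.96. The share called higher was thus near that of all joined genes. TUBB2B, another neuronal beta-tubulin, was at 495 ± 58.9 CPM over the IPs (SD, n = 3) against 174 CPM (log2 fold change 1.51, edgeR adjusted p = 0.0426). STMN2, a microtubule-destabilizing protein of growth cones, was at 353 ± 34.1 against 134 CPM (1.39, adjusted p = 0.0414), and RND2, which acts in migrating neurons, at 155 ± 31.3 against 27.0 CPM (2.52, adjusted p = 0.0414). TMSB10, a thymosin that binds actin monomers, differed less, by 0.83 (adjusted p = 0.0414), and TUBB4A, a further beta-tubulin, did not pass (1.22, adjusted p = 0.0894). The gene that was lower was FSCN1, an actin-bundling protein, at -0.94 (adjusted p = 0.0443), named here after its values were seen. In the calponin family, TAGLN, the smooth muscle relative of TAGLN3, was at 706 ± 66.5 CPM in the IPs (SD, n = 3) against 337 CPM for the input, a difference that missed the threshold (adjusted p = 0.0514).

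For vesicle release, 5 of 70 genes were joined. The members SNAP25 and SYT1 were higher, and so was 1 of the other 3, beside 32.4% of all joined genes. That gene was SNCG, which encodes gamma-synuclein (log2 fold change 2.86, edgeR adjusted p = 0.0446). VAMP2, the vesicle SNARE that pairs with SNAP25, had a mean of 102 ± 11.7 CPM (SD, n = 3) over the IPs against 51.0 CPM, and RAB3C, a vesicle GTPase, 13.3 ± 2.03 against 1.88 CPM. Neither passed, with log2 fold changes of 1.00 (adjusted p = 0.0794) and 2.82 (adjusted p = 0.0582).

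For calcium and calmodulin signaling, 4 of 40 genes were joined and 1 was higher, beside 32.4% of all joined genes. It was PCP4, a small calmodulin-binding protein, at 56.6, 61.0 and 45.2 CPM in the IPs against 1.13 CPM for the input library (log2 fold change 5.58, edgeR adjusted p = 0.0219). CAMK4 was the only 1 of the 4 below 0. CAMK2N1, an inhibitor of CaM kinase II, and CALM2, 1 of the calmodulin genes, had log2 fold changes of 1.53 and 0.92 and did not pass (adjusted p = 0.0665 and 0.0928).

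Of 43 genes of neuronal identity, 10 were joined, of which 7 were higher and none lower, with a median log2 fold change of 2.21. Of the 10, 9 had a log2 fold change above 0, and in 1 all IPs lay below the input without a call. Over all joined genes, 32.4% were higher and 17.6% lower, with a median of 0.96. INSM1 and NHLH1, transcription factors of newborn neurons, were at 96.9 ± 2.57 against 2.79 CPM and at 43.6 ± 4.48 against 0.543 CPM (SD, n = 3). Their log2 fold changes were 5.12 and 6.32 (edgeR adjusted p = 0.0181 for each). SOX11, NHLH2, ELAVL2 and GNG3 were also higher, by 1.49 to 2.57.

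Genes listed as markers of other cell types moved between IP and input as well. One of them, SOX2, does not mark other cells alone. The paper reports by immunolabeling that most SOX2+ cells in its DIV28 cultures were ATOH1-EGFP+. The 5 joined genes of the neural stem and astroglial list summed to 194 to 231 CPM in the IPs against 509 CPM for the input, with SOX9 and PROM1 lower (log2 fold changes -1.80 and -1.99, edgeR adjusted p = 0.0328 and 0.0345), SOX2 higher (3.49, adjusted p = 0.0326) and MSI1 at 1.86 (adjusted p = 0.0588). The 2 joined endothelial genes summed to 78.9 to 98.2 CPM in the IPs against 691 CPM for the input, and went apart, ADGRL4 at -3.38 (adjusted p = 0.0181) and CLDN5 at 5.12 (adjusted p = 0.0543). The 3 joined mesenchymal genes summed to 1908 to 2054 CPM in the IPs against 3328 CPM for the input, with COL1A1 lower (-1.45, adjusted p = 0.0322), LGALS1 at 0.98 (adjusted p = 0.116) and TAGLN as above. Of the 2 joined genes of oligodendrocytes and neural crest glia, CSPG4 was lower (-3.13, adjusted p = 0.0412) and NGFR was at 1.10 (adjusted p = 0.0614), and their sum was 81.1 to 99.1 CPM in the IPs against 82.4 CPM for the input. None of these joined markers was at 0 in the input, and no pluripotency marker was joined. The part of these cells in the levels of the 6 genes, that of CAMK4 in the input included, was not tested.

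**Figure D5:**
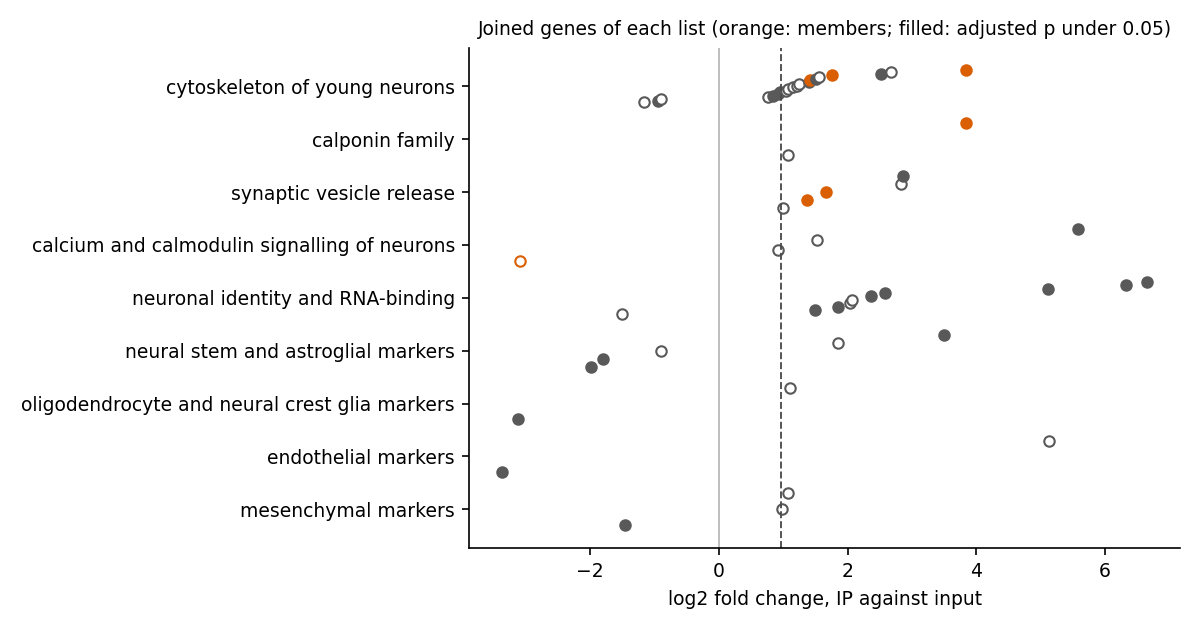
Log2 fold change of IP against input (x axis) for the joined genes of each list (y axis), with the 6 genes in orange and filled symbols for an adjusted p under 0.05, and a dashed line at the median of all joined genes, 0.96. The neuronal lists lie mostly right of 0, with CAMK4 at -3.10 apart from the other 3 genes of its list, and the marker lists lie on both sides.

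The joined genes most like each member over the 4 libraries were found by the root mean square difference of log2 CPM after each gene's own mean was subtracted, over 778 genes. For TUBB3 these were RPL22, SNHG6 and STMN2 (0.02 to 0.03), so that 1 of the 3 is a gene of the young neuronal cytoskeleton. For SNAP25 they were ACKR3, NDUFA7 and SSBP3 (0.02 to 0.06), for SYT1 COMMD6, RPL34 and NDUFB3 (0.04 to 0.05), and for DCX MFRP, ACTL6B and C7orf31 (0.03 to 0.08). Near to TAGLN3 were FOXJ1 (0.09) and RARRES2 (0.11). Those nearest to CAMK4, SOWAHB, STC1 and FIBIN, were the least alike (0.10 to 0.17), and STC1 and FIBIN were lower in IP (log2 fold changes -3.15 and -2.77, edgeR adjusted p = 0.0439 and 0.0244). With 3 replicates and 1 input, the likeness is set mainly by the size of the difference.

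The tie between symbol and transcripts is not equally firm for the 6 genes. The summed mean count was within 0.00215% of the study's gene row for SYT1 and 0.0601% for TUBB3, each with 1 candidate in the 0.5% allowed. SNAP25 was within 0.00288%, but had 4 candidates, the next at 0.118%. TAGLN3 (0.0969%) and CAMK4 (0.334%) each had 1 candidate between their joined neighbors, among 115 and 111 transcripts. The average transcript length of CAMK4 varied by 0.00302% over the libraries, far less than its difference in mean count. The source of that difference was not tested. DCX was within 0.00155%, but 5 candidates lay within the same 0.5% among 706 transcripts, the next at 0.0238%. The identities of DCX and CAMK4 are therefore both uncertain. Chance matches were not estimated for the 3 members joined as the closest run, TAGLN3, DCX and CAMK4.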

How the data were processed

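ATOH1-TRAP RNA was sequenced in 3 IP libraries and 1 input library. The authors quantified the reads with Salmon 0.8.2 on the UCSC known genes of hg19. Each transcript has an estimated count and a TPM in the deposited tables. The 6 genes and all gene lists were chosen with earlier results of these data known. Transcripts were tied to symbols as runs of neighboring transcripts (at most 20) whose summed mean count equals a gene row of the part of the study's table held here, which has 1998 genes. Of these, 448 were joined within 0.0012%, 338 within a tolerance scaled to the change in average transcript length and 3 members as the closest run within 0.5%. The tolerances were set after match counts were seen. With the mean counts multiplied by 0.93 or 1.07, 28 and 24 matches of the first kind and 32 and 24 of the second arose by chance. That table lists genes the study called different. No value here was computed from its fold changes or p-values, but its fold changes were looked at once, while the join was being developed, to see whether joined genes were plausible.

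Estimated counts were rounded, each joined gene was summed and every other transcript kept as a feature. The quasi-likelihood test of edgeR 4.0.16 (R 4.3.3) was run after its default filter and TMM scaling, and p-values were adjusted by Benjamini-Hochberg over 46056 features (threshold 0.05). CPM are scaled by TMM. DESeq2 1.42.0, limma 3.58.1, other filters and scalings, a length offset, single transcripts, leaving out each IP and the labels' own input were alternatives. Fold changes of TPM have no pseudocount and no test. Only the edgeR fit with the default filter and TMM scaling was tested on simulated counts, and the alternatives were not. A count of 0 allows up to 3 reads, or 0.074 to 0.0838 CPM. Named genes are the 6 members, ATOH1, up to 6 joined genes per list and 4 per marker list with the smallest p, all joined members of the calponin and selected tubulin and synaptic families, and the 3 genes most like each member, of which 1 is not reported here. Gene positions are from GENCODE v44 on GRCh37. Sources do not give the strand of the counting.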

Additional observations from a re-analysis of the deposited data

How the results depend on the processing

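Median-ratio scaling, no filter and a length offset left all 6 genes on the same side of 0 and of the threshold. Leaving out 1 IP gave log2 fold changes of 3.79 to 3.89 for TAGLN3, 1.65 to 1.85 for DCX, 1.35 to 1.49 for TUBB3, 1.64 to 1.69 for SNAP25, 1.30 to 1.40 for SYT1 and -3.26 to -2.94 for CAMK4, with 0 genes and 0 features called in either direction. limma-voom gave 3.84, 1.75, 1.41, 1.66 and 1.37 for the first 5 genes and also called 0. The most abundant transcript alone gave 2.34 for SNAP25 and 1.30 for SYT1, which were no longer called, so that 3 genes were. DESeq2 (log2 fold change -3.15) and a filter of at least 50 counts (-3.11) called CAMK4 lower, 1 gene. Over all features, DESeq2 called 6169 higher and 4286 lower, and that filter 1851 and 1027, against 957 and 535. Log2 ratios of TPM, with no test, were 3.53 for TAGLN3, 1.41 for DCX, 1.09 for TUBB3, 1.33 for SNAP25, 1.03 for SYT1 and -3.44 for CAMK4, lower than those of CPM by more than the SD of the IPs. With the library attached to the input label as input, the log2 fold changes were -0.60, -0.077, -0.12, -0.29, -0.26 and 2.24 in the same order (adjusted p = 1.00 in edgeR for each), and 0 features were called. The cause of these changes was not tested, except that leaving out a library leaves fewer samples. No paired analysis was possible because the IP and the input share only 1 replicate number and there is 1 input library. Depth limits CAMK4, whose IP values rest on 37 to 60 reads.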
